A study of Mus musculus with 16 samples.

Results

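Activity-regulated immediate early genes (IEGs) were examined across groups and mice. The 10 genes, found by their symbols in the deposited count table (24062 genes) and FPKM table (23991 genes), were Arc, Fos, Fosb, Junb, Egr1, Egr2, Nr4a1, Npas4, Dusp1 and Fosl2. All 10 passed the filter on low counts in every comparison. RNA came from the whole brain, cerebellum included, of 16 female C57BL/6J mice on postnatal day 45, 4 in each of 4 groups, and each brain gave 1 RNA-seq library. The study asked how adolescent nicotine exposure bears on ethanol intake and on brain gene expression.

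WW mice drank water only. NW mice drank nicotine (200 µg/ml) from their bottles during 22 h of each day. The group called Water-Ethanol here, and marked by its initials in the plots, was given 20% v/v ethanol in 4 daily drinking-in-the-dark sessions, brief periods of the dark phase with access to 1 spout. NE mice had both nicotine and ethanol. All mice were singly housed and of 1 inbred strain, all had the single-spout session (WW and NW with water), and brains were taken at the end of the last session, which ran for 4 h with the nicotine bottles off the cage. Every replicate was a separate animal, named below by its number in the labels.

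IEGs are transcribed within minutes of neuronal firing, without the need for new protein. Calcium entry activates kinases that act on CREB, which binds the cAMP response element (CRE), and on the SRF-ELK1 complex, which binds the CArG box, and both lie in the promoters of many IEGs. Several products are transcription factors: Fos, Fosb, Fosl2 and Junb form AP-1 dimers, Egr1 and Egr2 are zinc-finger factors, Nr4a1 is an orphan nuclear receptor and Npas4 is a neuron-specific basic helix-loop-helix factor. Arc acts at the synapse, where it promotes the removal of AMPA receptors, and Dusp1 is a phosphatase that switches off MAP kinases. Because their RNA is short-lived, they are widely used as marks of recent neuronal activity in the brain.

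Promoter sequences are shown because several of these genes varied together from mouse to mouse. RefSeq promoter windows on GRCm38.p6 were given for 8 of the 10 genes, all but Arc and Egr1, and the 250 bases before each start were searched on both strands. Capitals mark the letters of the CRE (TGACGTCA), of its half-site (TGACG, or CGTCA where it lies on the other strand) and of the CArG box, and the half-site counts include those inside a full CRE. Nr4a1, Fos and Dusp1 are printed because they were among the genes that varied most closely together. Fosl2 is printed because it was the only gene of the 8 with none of these letters.
Nr4a1, chr15:101266596-101266845, plus strand: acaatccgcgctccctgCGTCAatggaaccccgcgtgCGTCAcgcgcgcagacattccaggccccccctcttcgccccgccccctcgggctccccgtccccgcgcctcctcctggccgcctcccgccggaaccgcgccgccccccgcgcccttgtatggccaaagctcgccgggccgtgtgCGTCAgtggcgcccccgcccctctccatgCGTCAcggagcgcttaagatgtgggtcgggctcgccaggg
Fos, chr12:85473640-85473889, plus strand: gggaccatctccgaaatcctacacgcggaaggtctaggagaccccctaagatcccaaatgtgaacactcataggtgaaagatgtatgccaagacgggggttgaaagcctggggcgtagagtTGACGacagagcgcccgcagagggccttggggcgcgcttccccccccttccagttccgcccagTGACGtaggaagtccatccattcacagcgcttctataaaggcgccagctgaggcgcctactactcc
Dusp1, chr17:26508473-26508722, minus strand: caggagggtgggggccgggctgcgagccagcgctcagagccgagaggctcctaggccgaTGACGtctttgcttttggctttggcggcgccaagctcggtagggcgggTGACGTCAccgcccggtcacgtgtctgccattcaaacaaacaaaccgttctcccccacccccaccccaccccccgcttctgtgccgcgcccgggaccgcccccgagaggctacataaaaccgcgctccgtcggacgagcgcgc
Fosl2, chr5:32136222-32136471, plus strand: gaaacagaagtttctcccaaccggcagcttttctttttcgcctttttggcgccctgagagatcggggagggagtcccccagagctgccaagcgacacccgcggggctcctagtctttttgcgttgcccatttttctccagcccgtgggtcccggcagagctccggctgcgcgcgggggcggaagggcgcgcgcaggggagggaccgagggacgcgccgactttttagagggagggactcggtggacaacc
Egr2, chr10:67537797-67537818, plus strand, the 22 bases from its CArG box to the half-site after it: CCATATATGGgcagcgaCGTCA

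The CRE half-site was found in 7 of the 8 windows, and 17.8% of all 32851 promoter windows of the same length held it. G and C made up 58.4% (Fos) to 74.4% (Nr4a1) of the 8 windows, and the shares over all windows were not matched for this. Nr4a1 held 4 half-sites, whose first bases lay 233, 213, 69 and 40 bases before the start, and Dusp1 held 3, of which 2 lay in its full CRE, 1 on each strand. Fos, Egr2 and Npas4 held 2 each, and Fosb and Junb held 1 each. The full CRE was found in Dusp1 alone (1.55% of all windows) and the CArG box in Egr2 alone (1.47%). The AP-1 site TGANTCA was found in 0 of the 8 (6.75% of all windows). The RefSeq start of Fos lies 11 bases from the first base of the gene in the count table, and the other 7 starts coincide with it. RefSeq lists 5 starts for Egr2, and only the window of the start that coincides with the count table was searched. These matches describe letters only and say nothing of which factor was bound.

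Levels of the 10 genes were first ranked per transcript length, in FPKM of the 4 WW mice (mean ± SD, n = 4). Egr1 was the most abundant, at 102 ± 10.1 FPKM, followed by Arc at 65.9 ± 6.55 and Nr4a1 at 34.7 ± 4.64. Junb (21.7 ± 3.19 FPKM) and Dusp1 (20.0 ± 1.84 FPKM) overlapped. Fos followed at 16.8 ± 1.18 FPKM and Fosl2 at 8.77 ± 0.937. Npas4 (4.18 ± 0.982 FPKM), Egr2 (3.70 ± 0.503) and Fosb (2.84 ± 0.385) came last, and each overlapped with the next. All other neighbours in this order were separated in every WW mouse.

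Below, levels are normalized counts, that is reads per gene scaled to library size with TMM factors, and their differences are log2 fold changes from edgeR's quasi-likelihood test, with the standard error (SE) and the p-value adjusted by the Benjamini-Hochberg method over all genes tested. Values for single mice are given in the order WW 18, 19, 20 and 21, NW 7, 8, 10 and 11, Water-Ethanol 13, 14, 15 and 16, and NE 2, 3, 4 and 5. In whole-brain RNA, fewer active cells and less RNA per cell cannot be told apart.

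No IEG passed an adjusted p-value of 0.05 between NW and WW (0 of 10, against 0% of 15344 genes). The fold change was below 0 for 8 of the 10 genes, with a median of -0.28 on the log2 scale beside 0.00955 over all genes. Of the 4 NW mice, 2 were low. For 8 of the 10 genes, both NW 7 and NW 8 were below the lowest WW mouse. Of the 15592 genes tested with all 16 mice, 12.8% met that description, which was set after the values had been seen and was not tested. The exceptions were Fosb, below the lowest WW mouse in NW 7 only, and Npas4, below it in NW 8 only. The groups overlapped for all 10 genes (0 of 10 without overlap, against 5.96% of all genes), because NW 10 and NW 11 lay within or above the WW range for every gene.

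Arc (chromosome 15, 74669081 to 74672570), the synaptic effector, was counted at 5608, 5497, 4829 and 6121 normalized reads in WW and 2977, 1250.3, 6073 and 6024 in NW. Water-Ethanol mice had 6368, 5947, 6485 and 5762, and NE mice had 5844, 5887, 6843 and 3879.7. NW 8 held less than any other mouse and NW 7 came next, whereas NW 10 and NW 11 held more than 3 of the 4 WW mice. Within NW the highest mouse exceeded the lowest 4.858-fold, against 1.268-fold within WW. The NW mean of 4081 ± 2379 (SD, n = 4) was below the WW mean of 5514 ± 531, and the log2 fold change of -0.43 (SE 0.361) did not pass (adjusted p = 0.772). An exact two-sided permutation test of the same counts gave p = 0.371, where 0.0286 is the smallest p that 4 against 4 mice allow.

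Nr4a1 (chromosome 15, 101266846 to 101274794), the nuclear receptor, had 2559.8, 2287, 1958 and 2659 normalized counts in WW and 1517, 842, 2719 and 2387 in NW. Water-Ethanol mice had 2568, 2429.6, 2534 and 2229.8, and NE mice 2445, 2563, 2610.1 and 1851. As for Arc, the lowest mice were NW 8, NW 7 and NE 5, in that order. The log2 fold change in NW was -0.34 (SE 0.272, adjusted p = 0.761).

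The AP-1 gene Fos (chromosome 12, 85473901 to 85477270) had 993, 993, 849.5 and 934 normalized counts in WW and 655, 379, 962 and 968 in NW. In Water-Ethanol it had 1017, 859, 1042 and 825, and in NE 934, 965, 1018 and 825. Apart from NW 7 and NW 8, the 14 mice lay between 825 and 1042. The log2 fold change in NW was -0.35 (SE 0.223, adjusted p = 0.704).

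Dusp1 (chromosome 17, 26505591 to 26508472), the MAP kinase phosphatase, had 1163, 1006, 988 and 955 normalized counts in WW and 699.8, 396, 1086 and 1034 in NW. Water-Ethanol mice had 1220.5, 1147, 1475 and 1045, and NE mice 1164, 1118, 1348 and 787. NW 8, NW 7 and NE 5 were again the lowest mice, in that order. The log2 fold change in NW was -0.35 (SE 0.235, adjusted p = 0.709).

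Junb (chromosome 8, 84976909 to 84978748), an AP-1 partner of Fos, had 979, 915, 1019.6 and 1252 normalized counts in WW and 897, 504, 1139 and 1025 in NW. In Water-Ethanol it had 1141, 1019.7, 1326 and 1021, and in NE 1197, 1387, 1384 and 925. NW 7 lay just under the lowest WW mouse, and NW 8 was far below all others. The log2 fold change in NW was -0.22 (SE 0.197, adjusted p = 0.785).

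Egr2 (chromosome 10, 67537869 to 67542188), the zinc-finger factor with the largest difference in NW, had 306, 337, 242 and 318 normalized counts in WW and 159, 111, 261 and 270.4 in NW. Water-Ethanol mice had 389.5, 277, 297 and 229, and NE mice 259, 321, 269 and 259. NW 7 and NW 8 were the lowest of the 16 mice, and NW 10 and NW 11 were within the WW range. Egr2 was the only one of the 10 genes with an unadjusted p-value under 0.05 between NW and WW (log2 fold change -0.59, SE 0.231, adjusted p = 0.522), and 8.44% of all genes had one. An exact two-sided permutation test gave p = 0.0857.

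**Figure D1:**
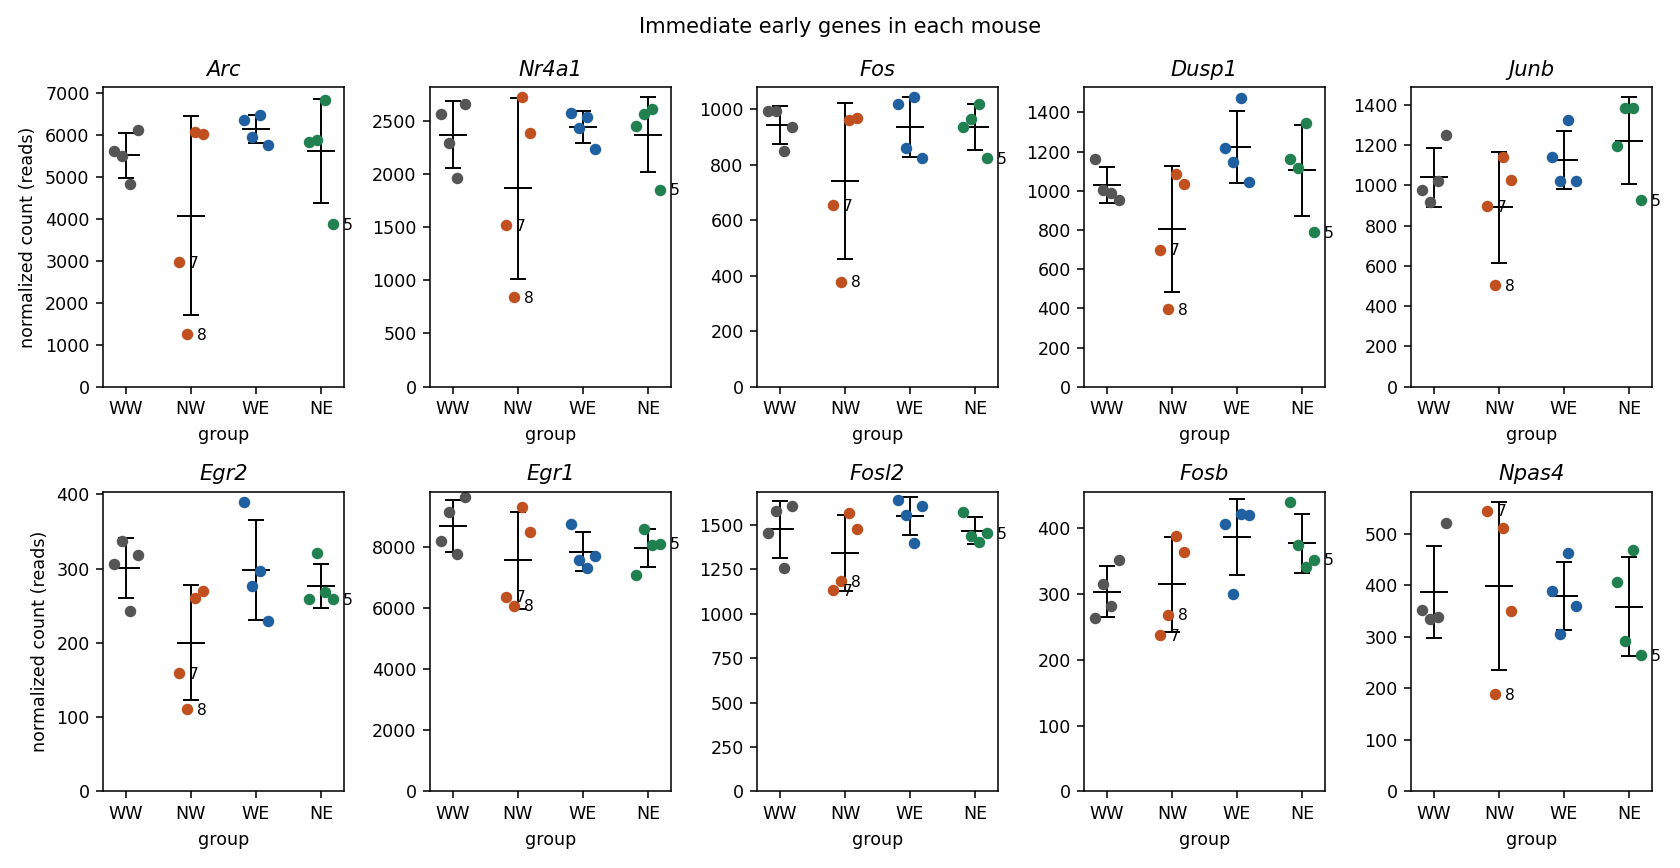
Normalized counts (y axis, reads) of each IEG in every mouse of the 4 groups (x axis), with the horizontal line at the group mean and bars of 1 SD (n = 4). The numbers mark NW 7, NW 8 and NE 5; for Arc, NW 8 was at 1250.3 and NW 7 at 2977, against 4829 for the lowest WW mouse.

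Egr1 and Fosl2 were also lowest in NW 7 and NW 8, with smaller differences in NW 8 than the 6 genes above. Egr1 (chromosome 18, 34861207 to 34864956) was at 6376 normalized counts in NW 7 and 6082 in NW 8, against 7083 to 9623 in the other 14 mice (log2 fold change between NW and WW -0.20, SE 0.126, adjusted p = 0.704). Fosl2 (chromosome 5, 32136472 to 32157839), a Fos relative, was at 1136 in NW 7 and 1185 in NW 8, against 1258 to 1643 in the others (-0.14, SE 0.108, adjusted p = 0.761). For both genes the pair of NW mice were the lowest of all 16.

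For Fosb and Npas4, unlike the other 8 genes, NW 7 and NW 8 were not both below every WW mouse. Fosb (chromosome 7, 19302696 to 19310045), whose protein can accumulate with repeated stimulation, had 264, 316, 282 and 351 normalized counts in WW and 238, 269, 388 and 363 in NW, so that NW 8 lay inside the WW range. Npas4 (chromosome 19, 4984355 to 4989971), a factor induced by calcium entry in neurons, had 352, 334, 339 and 520.4 in WW and 545, 188, 511 and 349.9 in NW. For Npas4, NW 7 was the highest and NW 8 the lowest of all 16 mice. Their log2 fold changes between NW and WW were 0.05 (SE 0.151, adjusted p = 0.949) and 0.05 (SE 0.270, adjusted p = 0.973).

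Averaged over the 10 genes, each mouse's level was set against the WW mean on the log2 scale. NW 8 stood at -1.07, or 0.476 of the WW mean, and NW 7 at -0.43, or 0.741 of it. NW 10 (0.14) and NW 11 (0.02) lay among the WW mice, which ran from -0.16 (WW 20) to 0.15 (WW 21). NW 8 was the lowest of the 16 mice for 8 genes, and NW 7 was lowest for 2 and second lowest for 7. The next lowest mouse was NE 5 at -0.22 (0.860 of the WW mean), below the WW mean for 9 of the 10 genes. WW 20 was below it for 10, with smaller differences.

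**Figure D2:**
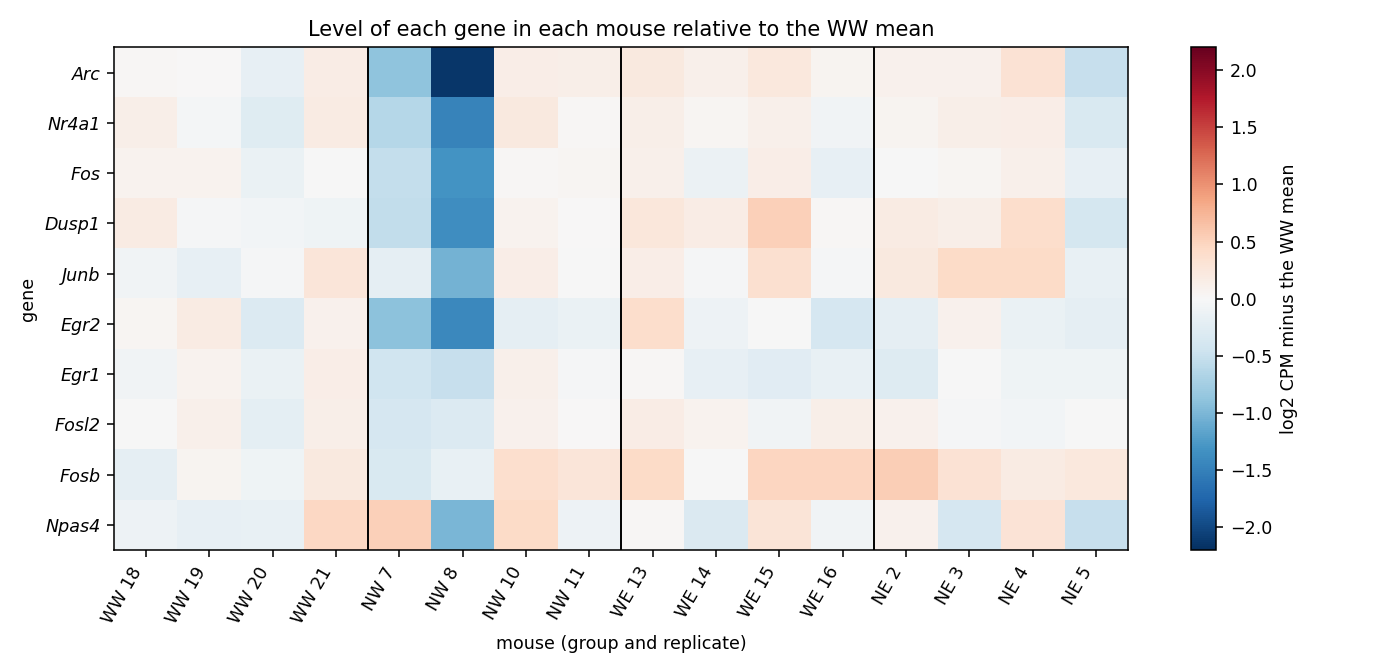
Log2 CPM of each IEG (rows) in each mouse (columns), minus the mean of the 4 WW mice; blue is lower, red is higher, and black lines separate the groups. NW 8 and NW 7 form the blue columns, with means over the 10 genes of -1.07 and -0.43, and only Npas4 was clearly raised in NW 7.

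Without NW 7 and NW 8, a setting chosen after the values were seen, the median log2 fold change of the 10 genes between NW and WW was 0.05 in place of -0.28, and 9 of the 10 fold changes were above 0. Egr2 remained at -0.18. With WW 21 and NW 10 left out instead, the median was -0.38, and 8 genes were still below the lowest remaining WW mouse in both NW 7 and NW 8 (17.8% of the 15592 genes, against 12.8% with all WW mice). None of the 10 genes passed in NW under DESeq2 (121 genes called in all) or in any other setting tried. The study itself, with Cuffdiff and correction for multiple testing, reported Arc, Fos, Nr4a1 and Egr2 as lower in NW. It also reported Fosb as higher with ethanol alone. Cuffdiff was not run here.

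Other measures of these libraries were read beside this pattern, and their part in it was not tested. Total counts per mouse were 27100352 to 32880979 (median 29448284). NW 10 and WW 21 stood apart in cerebellar markers: the granule cell receptor subunit Gabra6 had 1655 and 1070.2 normalized counts there, against 3423 to 4487 in the other 14 mice, and the 8 cerebellum markers summed to 13683 and 8555. NW 7 and NW 8 were not among them (33683 and 36343, within the range of the other mice). The ribosomal RNA gene Rn45s took 3.90% of reads in NW 10, 1.37% in NW 7, 0.729% in NW 8 and 0.274% to 0.617% elsewhere. The prolactin gene Prl, a pituitary marker, was at 241 normalized counts in NW 10, against at most 48.0 in the others.

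Markers of neurons, cortex, hippocampus, striatum and cerebellum were detected in every library. Of 15 lists of region and cell type markers, NW 8 was inside the range of the other 14 mice for all 15. NW 7 was outside it for 2 lists. The 5 neuron markers (all detected) summed to 136900 normalized counts in NW 7, against 143500 to 159470 in the other 14 mice and 150570 in NW 8. The red cell list summed to 177 in NW 7 against 66.5 to 135, all of it from Alas2, with the 6 haemoglobin genes listed at 0 in every mouse. By group, the neuron markers ranged from 150150 to 159470 in WW, 136900 to 154020 in NW, 143500 to 155330 in Water-Ethanol and 145290 to 153080 in NE. The part of these differences in the IEG values was not tested.

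Between Water-Ethanol and WW the 10 genes differed in both directions. None passed the adjusted p-value of 0.05 (0 of 10, against 0.457% of 15323 genes, or 70 genes). The median log2 fold change was 0.06, beside 0.00154 over all genes, with 6 genes above 0 and 4 below. Of the 10, 3 (Fosb, Dusp1 and Arc) had an unadjusted p-value under 0.05, as did 19.3% of all genes. The groups overlapped for all 10 genes, whereas 10.8% of all genes were without overlap.

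Fosb showed the largest difference, with 405.5, 299.9, 421 and 419.6 normalized counts in the Water-Ethanol mice against 264 to 351 in WW. In 3 of the 4 Water-Ethanol mice it was above every WW mouse, and in Water-Ethanol 14 it was inside the WW range. The log2 fold change was 0.35 (SE 0.116, adjusted p = 0.137), and the exact two-sided permutation test gave p = 0.0857. Dusp1 followed at 0.25 (SE 0.0943, adjusted p = 0.172), with a mean of 1222 ± 183 against 1028 ± 92.5 in WW. Arc was at 0.16 (SE 0.0637, adjusted p = 0.203), with 6141 ± 342 against 5514 ± 531. WW 21 was the mouse with the fewest cerebellar reads and had the highest Arc and Fosb counts in WW. Without WW 21, Arc passed at 0.21 (adjusted p = 0.0427) and Fosb at 0.43 (adjusted p = 0.0450). In that setting 797 of 15411 genes passed, against 70 of 15323 with WW 21 kept. With all 16 mice in 1 fit and a cerebellum score as a covariate, Arc and Fosb did not pass (adjusted p = 0.602 and 0.0860).

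Egr1 was lower than in WW, with 3 of the 4 Water-Ethanol mice below every WW mouse. It had 8760.5, 7589, 7308 and 7722 normalized counts there and 8187, 9131, 7767 and 9623 in WW (log2 fold change -0.14, SE 0.0701, adjusted p = 0.286). Junb was at 0.12 (SE 0.101) and Fosl2 at 0.08 (SE 0.0744). Nr4a1 (0.05, SE 0.0816), Npas4 (-0.02, SE 0.150), Fos (-0.01, SE 0.0799) and Egr2 (-0.01, SE 0.144) differed by less than their SE.

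In NE mice, which had both substances, Fosb and Junb had the highest means relative to WW. No IEG passed between NE and WW (0 of 10, against 0.313% of 15313 genes, or 48 genes), and 1 gene, Fosb, had an unadjusted p-value under 0.05, as did 17.5% of all genes. The median log2 fold change was 0.000414 beside 0.00385 over all genes, with 5 genes on each side of 0. Fosb had 439, 375, 340.4 and 352 normalized counts in NE, 3 of them above every WW mouse. Its log2 fold change was 0.32 (SE 0.104, adjusted p = 0.160), and the exact two-sided permutation test gave p = 0.0571. Junb was at 0.23 (SE 0.123, adjusted p = 0.358) and the other 8 genes lay between -0.12 and 0.11. The groups overlapped for all 10 genes (0 of 10 without overlap, against 10.7%). The comparisons with WW share the same 4 control mice, so the Fosb values of Water-Ethanol and NE are not independent of each other.

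Within NE, 1 mouse was the lowest for 6 of the 10 genes. NE 5 had the fewest reads of its group for Arc, Nr4a1, Fos, Dusp1, Junb and Npas4. Egr1, by contrast, was at 8114 in NE 5, the second highest of the 4 NE mice.

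The comparison of NE with Water-Ethanol sets mice with both substances beside mice with ethanol alone. The study reported that nicotine-exposed mice drank more ethanol on the last day and had higher blood ethanol. Nicotine and a higher ethanol dose cannot be told apart in this comparison. There 0 of 10 IEGs passed in edgeR's test (0% of 15319 genes), and 0 had an unadjusted p-value under 0.05, as did 5.80% of all genes. The log2 fold changes ran from -0.15 (Dusp1, SE 0.130) to 0.12 (Junb, SE 0.112), with a median of -0.06. The smallest adjusted p was 0.848, for Fosl2, and DESeq2 called 2 genes in all and none of these. The groups overlapped for all 10 genes (0 of 10 without overlap, against 3.52%).

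Between NE and NW, which asks what ethanol adds to nicotine, the mean was higher in NE for 9 of the 10 genes, with a median log2 fold change of 0.34 beside 0.00186 over all genes. None passed (0 of 10, against 0% of 15361 genes), and 0 of 10 were without overlap (7.43% of all genes). Junb had the smallest p, at 0.45 (SE 0.198, adjusted p = 0.395), with 3 of the 4 NE mice above every NW mouse, and was the 1 gene with an unadjusted p-value under 0.05, as were 11.9% of all genes. Egr2 (0.46, SE 0.217), Arc (0.46, SE 0.362) and Dusp1 (0.46, SE 0.247) had differences of the same size. Without NW 7 and NW 8, which were picked because they were low, the median was -0.05, Arc was at -0.11 and Junb at 0.17.

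Whether the ethanol effect differed with nicotine was tested by the interaction, in a fit of all 16 mice (the difference of NE from Water-Ethanol minus that of NW from WW, equal to the ethanol effect with nicotine minus that without). No IEG passed (0 of 10, against 0% of 15592 genes), none had an unadjusted p-value under 0.05 (6.76% of all genes did), and the median was 0.26 beside 0.000608 over all genes. Egr2 was highest at 0.48 (SE 0.290, adjusted p = 0.806). Without NW 7 and NW 8 the median was -0.14. The higher ethanol intake reported for nicotine-exposed mice also enters the interaction and cannot be separated from nicotine there.

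**Figure D3:**
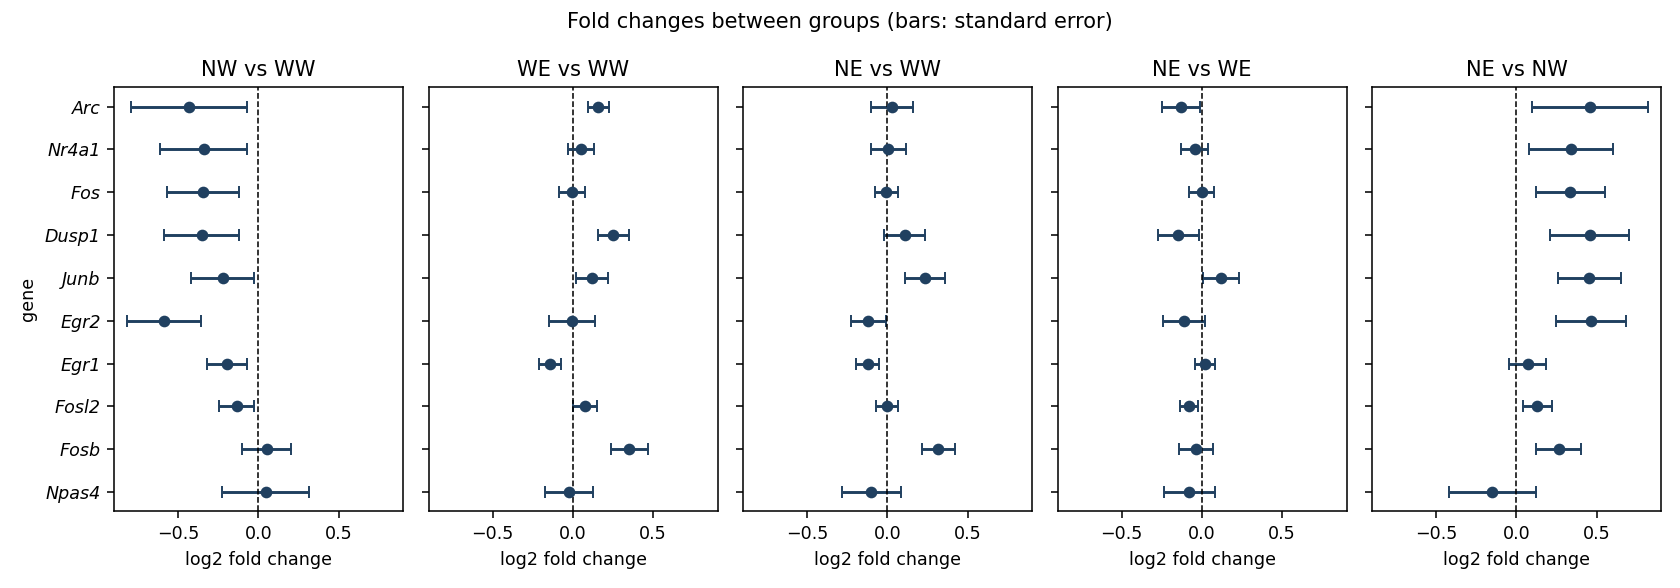
Log2 fold change (x axis) of each IEG (y axis) in the 5 comparisons between groups, from edgeR's quasi-likelihood test; bars are 1 SE and the dashed line is 0. The bars are longest in the comparisons that include NW, where Arc had an SE of 0.361 against WW and 0.362 against NE, compared with 0.0637 between Water-Ethanol and WW.

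Each of the 10 genes had its largest spread between mice in NW. This was described and not tested. The spread in NW includes the low mice described above, so it is not separate from the NW fold changes. The median SD of log2 CPM of the 10 genes was 0.623 in NW, beside 0.116 over all 15592 genes. In NW 7 of the 10 exceeded the 95th percentile of all genes (0.444). In WW the median was 0.171 (0.0953 over all genes), in Water-Ethanol 0.174 (0.0846) and in NE 0.197 (0.0863), and in those 3 groups none exceeded that percentile. Arc had the largest SD in NW, at 1.08, greater than that of 99.8% of genes, yet 0.0807 in Water-Ethanol, below the median of all genes there. Fosb, Egr1 and Fosl2 were the 3 genes within the 95th percentile in NW.

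**Figure D4:**
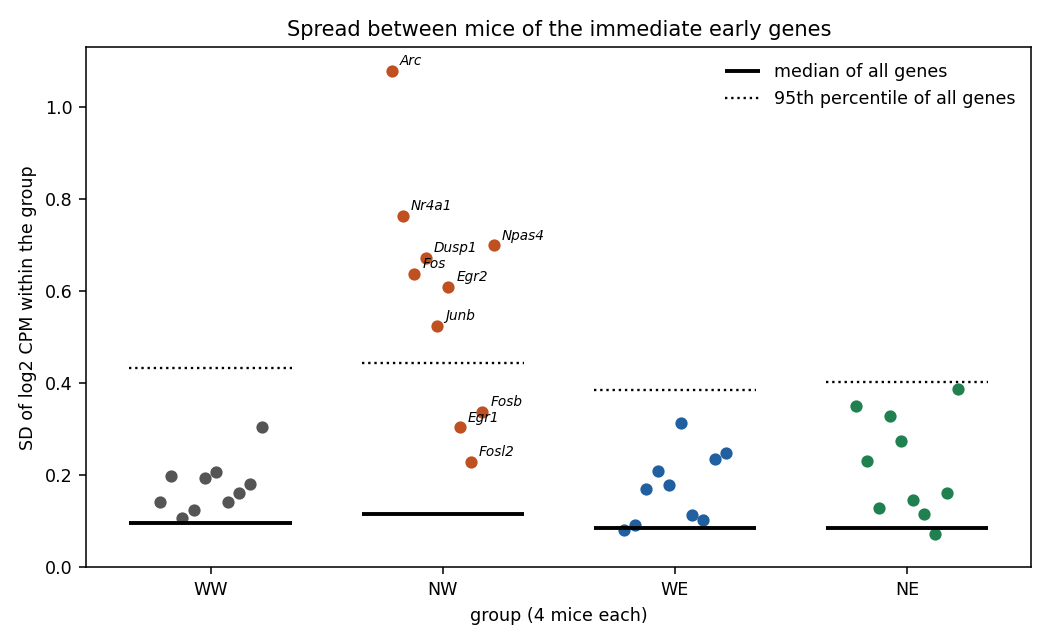
SD of log2 CPM between the 4 mice of each group (y axis) for each IEG (points), beside the median (solid line) and the 95th percentile (dotted line) of all genes. In NW the IEGs spread up to 1.08 (Arc) and 7 lie above the dotted line at 0.444, whereas in the other groups all 10 lie below it.

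Covariation between mice was described by Pearson's r of log2 CPM after each group's mean was removed, over 16 mice. The points share libraries, and because the genes were chosen with earlier results known, r is given as a description. All 45 pairs of the 10 genes were above 0, with a median r of 0.690 (0.205 to 0.984), beside -0.0005 over all pairs of genes. Without NW 8 and NW 10, the 2 mice farthest from the median level once group means were removed, the median was 0.543. NW 7 was kept in that setting. Without the 4 NW mice the median was 0.377, with 42 of the 45 pairs above 0 in both cases. With NW 7 and NW 8 alone left out it was 0.375. These 2 mice were picked after their values had been seen, and without NW 7 or NW 8 singly the median was 0.759 and 0.611.

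Arc and Nr4a1 were the closest pair (r = 0.984, Spearman's rho = 0.965), and each was the gene most like the other among 15591. Their r was 0.950 without the 2 farthest mice and 0.918 without the NW mice. Arc and Fos (r = 0.968), Fos and Nr4a1 (0.960), Fos and Dusp1 (0.948) and Arc and Dusp1 (0.947) followed. Arc, Nr4a1, Fos, Dusp1 and Junb kept pairwise values of 0.605 to 0.918 without the NW mice.

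Egr1 and Egr2, the zinc-finger pair, were close to each other (r = 0.864, and 0.693 without NW mice), and for Egr1 no other gene in the table was closer than Egr2. Egr1 and Fosl2 stood at 0.798 (0.522 without NW mice). By contrast, Egr1 and Dusp1 went from 0.557 to -0.24 and Dusp1 and Fosl2 from 0.424 to -0.26 when the NW mice were left out. Npas4 was closest to Junb (0.820, and 0.751 without NW mice) and least like Fosl2 (0.205). Fosb was closest to Fosl2 (0.714) among the members.

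**Figure D5:**
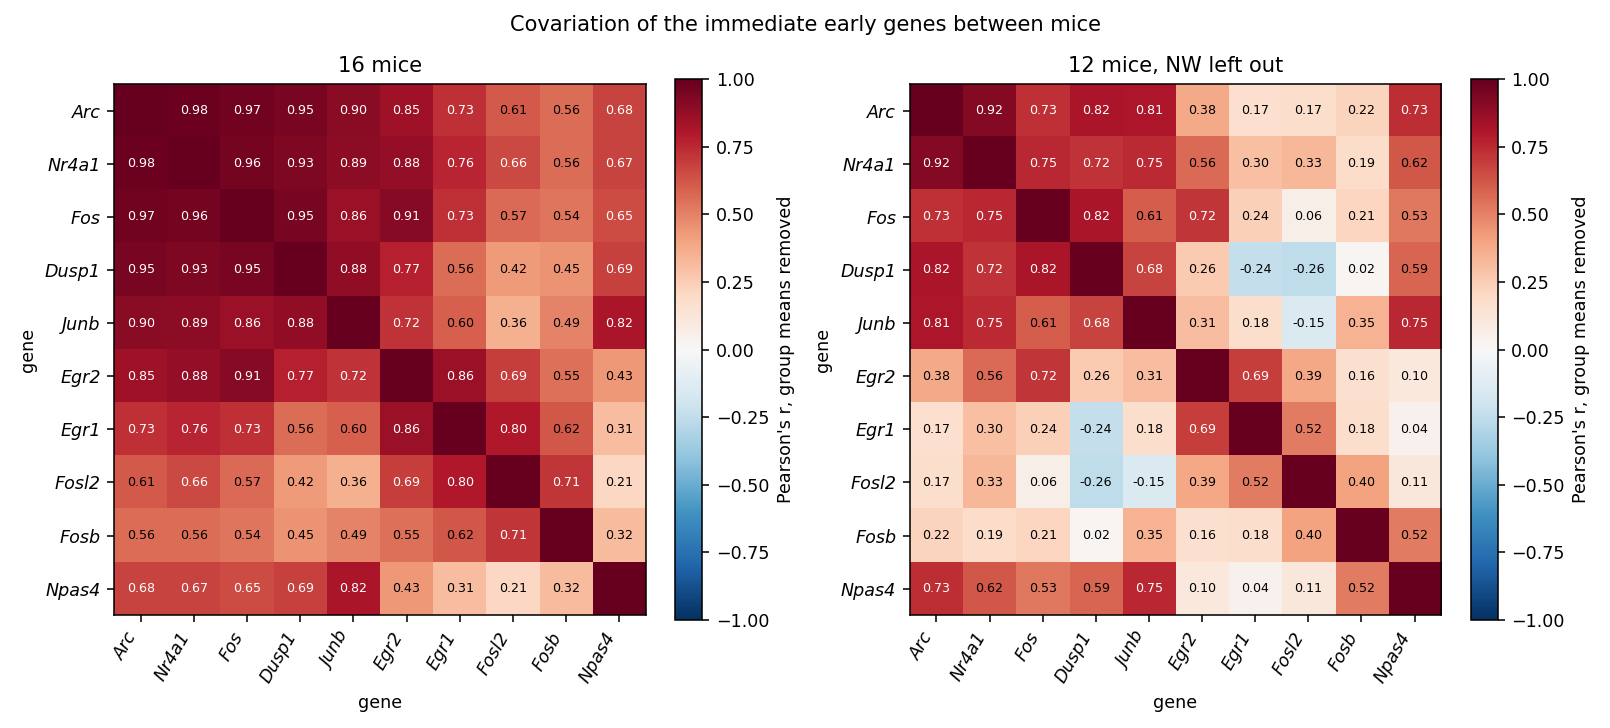
Pearson's r between the IEGs over mice, after removing group means, with all 16 mice (left) and with the 12 mice outside NW (right); both axes list the genes and the colour gives r. Arc, Nr4a1, Fos, Dusp1 and Junb stay red in both panels (0.918 for Arc and Nr4a1 on the right), whereas the pairs of Dusp1 with Egr1 and Fosl2 turn to -0.24 and -0.26.

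For 4 of the 10 genes the most similar gene in the table was not an IEG of this set. Dusp1 was closest to Sik1 (r = 0.950), a CREB-induced kinase. Npas4 was closest to Polr3e (0.932), a subunit of RNA polymerase III, Fosl2 to Cstf3 (0.887), a factor in mRNA 3′-end cleavage, and Fosb to Lhx9 (0.863), a LIM-homeobox factor. The gene closest on average to all 10 was Per1 (mean r = 0.790), a clock gene that is itself induced by CREB. Next came Hira (0.783), a histone chaperone, Sik1 (0.779), Dusp6 (0.777), an ERK phosphatase, Stard13 (0.772), Tlr7 (0.762), AW551984 (0.753), Trib1 (0.745), Ip6k2 (0.739) and Edrf1 (0.733). Without NW 8 and NW 10 the mean r of these genes, Per1 included, ran from 0.495 (AW551984) to 0.611 (Tlr7), with Per1 at 0.567.

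These genes were picked for their likeness over the same mice, so their values are a description. Per1 had 2887, 2614, 2495 and 2907 normalized counts in WW and 2509.7, 1779.8, 2950.3 and 2765 in NW. Sik1 had 614, 585, 560.1 and 603 in WW and 463, 334, 597 and 558 in NW. Dusp6 had 1876, 1856, 1915 and 2102 in WW and 1332, 1180.5, 1966 and 1830.1 in NW. For Per1 NW 7 lay inside the WW range and NW 8 below it, and for Sik1 and Dusp6 both were below every WW mouse.

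Other genes of the pathway were read by lists that had been fixed by role. Of 20 other early transcription factors with a value, 10 had a mean r to the IEGs above the 95th percentile of all genes (0.456), led by Per1 and with Jund lowest at -0.28. Of 18 signalling feedback genes (phosphatases, Sprouty and RGS proteins and the like) 9 did, with Zfp36 lowest at -0.30. The share was smaller for the 18 synaptic and secreted effectors (2, led by Arl4d at 0.732) and for the 20 upstream regulators (5, led by Srf at 0.662). Summed counts of the other early transcription factors were 20556 in NW 7 and 20910.0 in NW 8, below the 23824 to 25576 of the other 14 mice. For the other 3 lists NW 7 alone was below the other 14 mice: the feedback genes summed to 31334 (35444 to 41322 in the others), the effectors to 29785 (32308 to 37661) and the upstream regulators to 149400 (150990 to 171710). NW 8 was inside those ranges as sums, which weigh the most abundant genes of a list most. Single genes can differ from the sum, as Sik1 and Dusp6 of the feedback list did in NW 8 (values above).

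In the tests between groups, few genes of these lists passed. Between NW and WW none passed in either direction (0 of 20, 0 of 18, 0 of 18 and 0 of 20 genes tested, in the order above), against 0% of 15344 genes. The smallest p-values belonged to Creb1, which encodes CREB itself (log2 fold change -0.26, SE 0.0791, adjusted p = 0.348), Apold1 (-0.32, adjusted p = 0.431) and Mef2a (-0.16, adjusted p = 0.459). Medians were -0.13 for the other early transcription factors, -0.09 for the feedback genes, -0.06 for the effectors and 0.00360 for the upstream regulators. Lower Creb1 was not particular to NW. Against the same WW mice it was at -0.27 in NE (SE 0.052, adjusted p = 0.0584). In Water-Ethanol it was at -0.18 (SE 0.0554, adjusted p = 0.114).

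Between Water-Ethanol and WW, 1 of 18 feedback genes and 1 of 20 upstream regulators passed, both lower, against 0.457% of all 15323 genes. Rgs4, an inhibitor of G protein signalling, fell from 13904 ± 581 to 11010.4 ± 913 normalized counts (log2 fold change -0.33, SE 0.0560, adjusted p = 0.0424). Mef2c, an activity-dependent transcription factor, fell from 15730.3 ± 378 to 12699 ± 1104 (-0.31, SE 0.0555, adjusted p = 0.0450). Klf4 was at 0.47 and Klf10 at -0.34 (adjusted p = 0.0539 and 0.0625), and neither passed. No effector passed (0 of 18). Rgs4 passed in 7 of 16 alternative settings and Mef2c in 5, each with the same sign in all 16. Rgs4 (-0.23, adjusted p = 0.118) and Mef2c (-0.17, adjusted p = 0.122) were also lower between NE and WW and did not pass there. Both are abundant in the forebrain, and the 7 cortex markers summed to 22989 to 25644 normalized counts in Water-Ethanol against 25128 to 31067 in WW. The part of that difference in these results was not tested.

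Between NE and WW, 1 of 20 early transcription factors and 1 of 20 upstream regulators passed, against 0.313% of all 15313 genes. Klf10, a TGF-beta-induced factor, fell from 959 ± 67.1 to 747 ± 54.7 normalized counts (-0.36, SE 0.0649, adjusted p = 0.0453). Elk1, the partner of SRF at IEG promoters, rose from 1927 ± 44.3 to 2220.2 ± 34.2 (0.21, SE 0.0346, adjusted p = 0.0390). Klf10 passed in 5 of 16 alternative settings and Elk1 in 7, with the same sign in all 16. Klf10 (-0.34, adjusted p = 0.0625) and Elk1 (0.13, adjusted p = 0.160) had the same sign between Water-Ethanol and WW and did not pass there. None of the feedback genes or effectors passed between NE and WW. No gene of the 4 lists passed between NE and Water-Ethanol, between NE and NW or in the interaction. In each of these, 0% of all genes passed. Jun, another AP-1 gene, had the smallest p between NE and NW (0.22, SE 0.0483, adjusted p = 0.185), with 2064 ± 82.0 against 1766 ± 84.8 normalized counts.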

How the data were processed

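Whole-brain RNA of 16 mice (4 per group) was sequenced. The authors trimmed reads with Trimmomatic 0.32 and aligned them to GRCm38 with TopHat2. They deposited whole read counts per gene, not normalized, with 1 column per mouse; the counting program and its use of strand are not given in the sources used here. The deposited FPKM values, from the Cufflinks tools, are corrected for the length of the transcript and the size of the library, and depth cannot be read from them.

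Counts were tested with edgeR 4.0.16 (R 4.3.3) by quasi-likelihood F-tests after TMM normalization and filterByExpr, in fits of the groups compared (all 16 mice for the interaction), with Benjamini-Hochberg adjustment over all genes and a threshold of 0.05. SE was computed as the size of the log2 fold change over the root of F. Log2 CPM used a prior count of 2. Total counts were 27100352 to 32880979 per mouse. Members and lists were chosen with earlier results of these data known. The genes named are the 10 members, list genes past the threshold (otherwise those of smallest p), the 10 genes most like the members, each member's closest gene, and markers that set a mouse apart. Alternatives were RLE factors, DESeq2 1.42.0, no filter, a stricter filter (1 CPM in 4 mice), all 16 mice, a cerebellum score, limma 3.58.1 on log2(FPKM + 1) and log2(FPKM + 0.1) for genes with a mean FPKM of at least 0.1, and leaving out each mouse. Leaving out NW 7 with NW 8, and WW 21 with NW 10, was added after seeing the data. Tests were also run on simulated data. Replicate numbers differ between groups, so no pairing was used. Other statistics used Python 3.11.15, numpy 2.4.6, pandas 2.3.3, scipy 1.17.1 and matplotlib 3.10.9. Promoters came from RefSeq (GRCm38.p6).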

Additional observations from a re-analysis of the deposited data

Results flagged for a closer look

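In 40 sets of 4 mice (10 genes in 4 groups), the highest or lowest mouse was tested for its distance from the others with Dixon's criterion, which marks about 1 in 20 sets by chance. It marked 3. Fosb in Water-Ethanol 14 had 299.86 normalized counts, and the other 3 mice of its group had 405.52 to 421.15. Egr2 in NE 3 was at 320.7 against 258.9 to 268.95. Npas4 in WW 21, the mouse with few cerebellar reads, was at 520.41 against 333.87 to 352.4. NW 7 and NW 8 were not marked for any gene. The criterion sets a single mouse against its nearest neighbour, and for most genes both were low in the same set of 4. Each then hides the other, so the missing mark does not show that they lay with the other NW mice.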

How the results depend on the processing

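No paired analysis was possible because the replicate numbers are not shared between groups. In 107 of 108 alternatives none of the 10 IEGs passed. Without WW 21, Arc and Fosb passed between Water-Ethanol and WW, where 797 of 15411 genes passed in that setting. Leaving out each mouse gave 0 to 2 called members there. Of 1080 fold changes of single members under the alternatives, 987 kept their sign and side of the threshold, 2 newly passed and 91 changed sign. Most of the 91 were small values near 0. How far depth or the number of mice limits these tests was not tested.

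Without NW 7 and NW 8, log2 fold changes between NW and WW that changed sign were Arc 0.13, Fos 0.036, Junb 0.056, Egr1 0.040, Nr4a1 0.11, Dusp1 0.045 and Fosl2 0.046. Between NE and NW they were Arc -0.11, Fos -0.048, Egr1 -0.17, Nr4a1 -0.11 and Fosl2 -0.053. In the interaction they were Arc -0.26, Fos -0.036, Egr1 -0.019, Nr4a1 -0.15, Dusp1 -0.19 and Fosl2 -0.12, with a median of -0.14. The median r of the 45 pairs was 0.375 without them, 0.377 without all NW mice, and 0.611 to 0.759 when single mice were left out. With the cerebellum score, sign changes were Fos 0.043, Egr2 0.055 and Npas4 0.15 between Water-Ethanol and WW, and Fos 0.040, Npas4 0.066 and Fosl2 0.048 between NE and WW. From FPKM with pseudocounts of 1 and 0.1, Npas4 was at -0.029 and -0.054 between NW and WW, and between NE and WW Nr4a1 was at -0.000539 and -0.000648 and Fosl2 at 0.0057 and 0.0068.

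When single mice were left out, sign changes lay within these ranges. NW against WW: Fosb -0.070 to 0.16 and Npas4 -0.15 to 0.28. Water-Ethanol against WW: Fos -0.063 to 0.047, Egr2 -0.16 to 0.097, Nr4a1 -0.033 to 0.11 and Npas4 -0.13 to 0.15. NE against WW: Arc -0.083 to 0.17, Fos -0.054 to 0.045, Dusp1 -0.0056 to 0.24, Fosl2 -0.072 to 0.038, Npas4 -0.26 to 0.074 and Nr4a1 -0.076 to 0.10. NE against Water-Ethanol: Arc -0.24 to 0.0089, Egr1 -0.021 to 0.074, Egr2 -0.22 to 0.040, Fos -0.059 to 0.052, Fosb -0.14 to 0.011, Npas4 -0.24 to 0.039 and Nr4a1 -0.096 to 0.054. NE against NW: Egr1 -0.024 to 0.18 and Npas4 -0.39 to 0.046. Interaction: Arc -0.000192 to 0.55, Dusp1 -0.020 to 0.38, Fosb -0.20 to 0.022, Fosl2 -0.014 to 0.13 and Npas4 -0.36 to 0.073.

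The number of all genes called moved far more. DESeq2 called 121 genes between NW and WW, 605 between Water-Ethanol and WW, 508 between NE and WW, 2 between NE and Water-Ethanol, 92 between NE and NW and 1 in the interaction. In the same order, the fit with the cerebellum score called 235, 266, 247, 0, 188 and 1. A fit of all 16 mice called 112 in NW against WW, 28 in Water-Ethanol against WW and 57 in NE against NW. With no filter on low counts, 143 genes were called in Water-Ethanol against WW and 1 in NE against Water-Ethanol. FPKM with either pseudocount gave 0 in Water-Ethanol against WW, 1 in NE against WW, 1 in NE against Water-Ethanol and 3 in NE against NW. Without NW 7 and NW 8, 1 gene was called between NE and NW. Leaving out single mice gave 0 to 797 in Water-Ethanol against WW, 0 to 283 in NE against WW and 0 to 1 in NE against Water-Ethanol. The cause of these differences was not tested.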
